A study of Equus caballus with 6 samples.

Results

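Among the genes with an Ensembl identifier, 206 were abundant in the testis of mature stallions and low in the testis of immature colts of the Mongolian horse. They were chosen by 4 conditions on the read counts. A member had at least 200 CPM, the count scaled to a common library total of gene counts, in each of the 3 mature libraries and at least 10 counts in each of the 3 immature libraries. Its CPM in every immature library was at most 1/8 of its mean CPM in the mature libraries. Its gene length, derived from the deposited counts and FPKM values, lay above 150 and below 9000 bp. The members were 206 of the 26991 Ensembl genes and of the 58724 genes in the tables, or 0.763% of the Ensembl genes.

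The immature testes (before sexual maturation, BSM) came from 3 colts, 11 to 13 months old, and the mature testes (after sexual maturation, ASM) from 3 stallions, 3 to 4 years old. All 6 horses were healthy, and no treatment is given in the labels for either stage. Each horse gave 1 strand-specific poly(A) library from testis, so a stage has 3 animals as its replicates and the stages hold different animals. The ASM columns of the tables could not be matched to single sample titles, so ASM1, ASM2 and ASM3 are the replicates of that stage in no order of animals.

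Before puberty the seminiferous tubules hold mainly Sertoli cells and spermatogonia. At maturity they fill with spermatocytes, in which meiosis takes place, and with haploid spermatids, which condense their chromatin and build an acrosome and a flagellum. These later germ cells are known for large amounts of messenger RNA from genes that other tissues hardly use, and much of it is stored before it is translated. In bulk tissue a lower level can come from fewer cells of a type or from less RNA per cell, and these cannot be told apart here. The tables list identifiers without gene symbols, and the RefSeq table of 39335 horse genes used here carries Ensembl identifiers for 0 of its genes, so no member could be looked up in it. The functions, the cell-type markers and the sequences of the members were therefore not analysed here, and the labelled tissue could not be checked against marker genes. Members other than ENSECAG00000020028 and ENSECAG00000014618 are called by their rank in mean ASM CPM.

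Libraries held between 14015484 and 15910529 gene counts in BSM and between 17195381 and 19721986 in ASM. A gene with 3 counts had between 0.152 and 0.214 CPM. As a check for a library deposited more than once, the counts of each pair within a stage were compared, and none matched within sampling noise (chi-square per degree of freedom of at least 11.3). Every member was well above the counting limit in ASM, where its lowest count was 3484. In BSM the lowest counts were 15 in BSM1 (exact 95% Poisson interval 8.40 to 24.7), 79 in BSM2 and 43 in BSM3. In BSM1, 51 members had fewer than 50 counts, against 0 in BSM2 and 2 in BSM3. Intervals and limits cover counting error only.

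The condition on abundance left 812 Ensembl genes within the length limits, and all 812 had at least 10 counts in every BSM library, so the minimum count in BSM removed none. The members were 25.4% of these 812 genes. In another 285 the highest BSM level lay above 1/8 and up to 1/2 of the mean ASM level, and in 321 it lay above 1/2. The rule used the counts of all 6 libraries, so the difference between ASM and BSM is given for the members as a description, without a test.

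**Figure D1:**
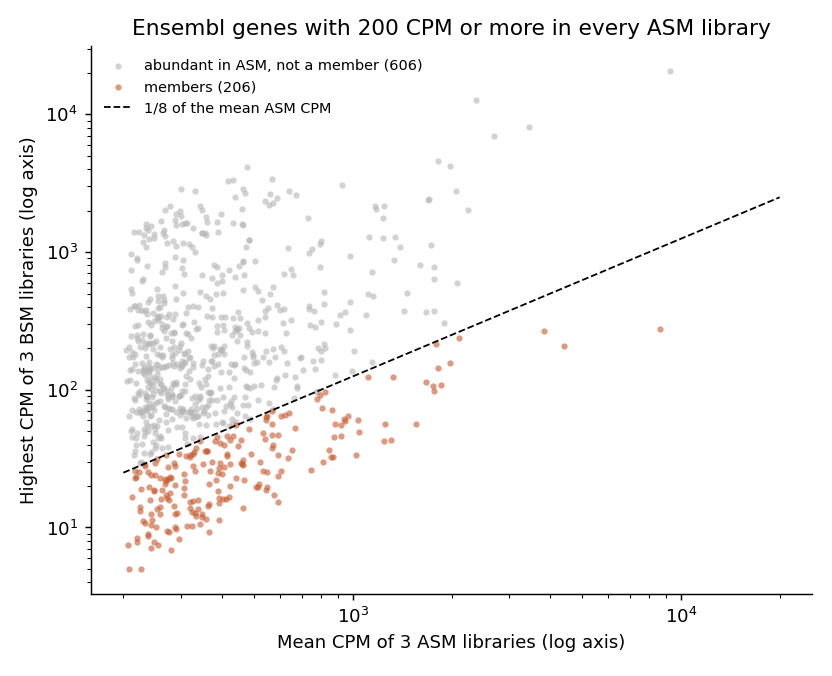
Ensembl genes with at least 200 CPM in every ASM library, with the mean CPM of the 3 ASM libraries on the x axis and the highest CPM of the 3 BSM libraries on the y axis, both on log axes. The 206 members lie below the dashed line at 1/8 of the ASM mean, and the other 606 genes lie above it.

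The members together held 11.5% of all gene counts in ASM1, 12.2% in ASM2 and 11.8% in ASM3. In the immature testes they held 0.244% in BSM1, 0.768% in BSM2 and 0.550% in BSM3. Over the 3 ASM libraries the share averaged 11.9% ± 0.353 (SD, n = 3), and over the 3 BSM libraries 0.520% ± 0.263 (SD, n = 3). The stages did not overlap, which the rule fixes for this share. Relative to its mean, the share varied more in BSM than in ASM. By comparison, the 285 abundant genes with a BSM level between 1/8 and 1/2 held between 12.2% and 12.5% of the counts in ASM and between 2.42% and 3.39% in BSM.

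No single gene made up this share. ENSECAG00000020028 held 6.74%, 8.16% and 6.96% of the member counts in ASM1, ASM2 and ASM3, and the 10 most abundant members held between 24.6% and 26.5%. The smallest number of members with 50% of the member counts was between 39 and 42 in ASM. Without the 10 most abundant members the others still held 8.87% of all gene counts in ASM and 0.403% in BSM.

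**Figure D2:**
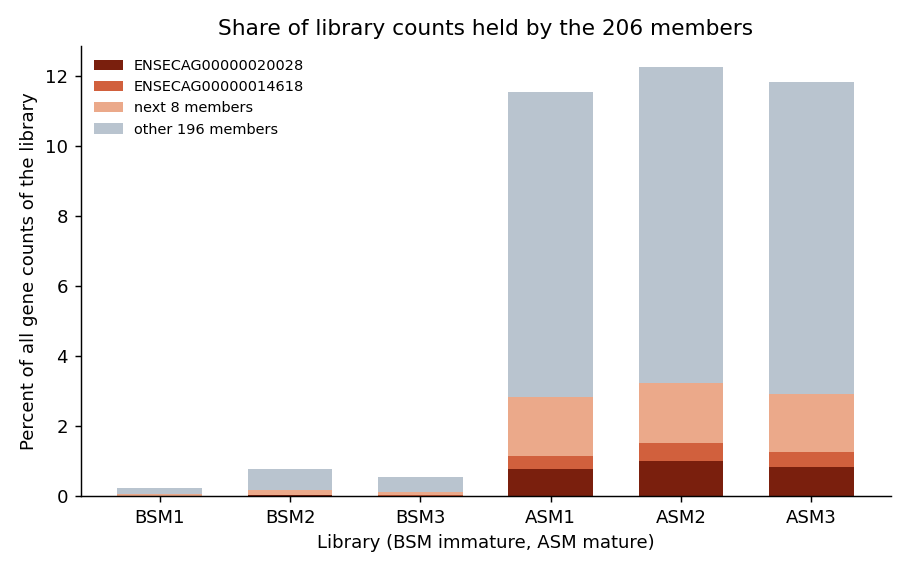
Percent of all gene counts of each library (y axis) held by the members, for the 3 BSM and 3 ASM libraries (x axis), split into ENSECAG00000020028, ENSECAG00000014618, the next 8 and the other 196 members. The ASM bars reach 11.5% to 12.2% and the BSM bars 0.244% to 0.768%.

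In ASM the median member stood at 368 CPM in ASM1, 378 CPM in ASM2 and 374 CPM in ASM3. In BSM the median was 6.62 CPM in BSM1, 25.7 CPM in BSM2 and 19.6 CPM in BSM3. A mean ASM level from 200 to under 400 CPM was found for 115 members, from 400 to under 1000 CPM for 71 and of 1000 CPM or more for 20. The highest level of any member in any BSM library, 276 CPM, was above the threshold of 200 CPM for the ASM libraries, but it belonged to the member with the highest ASM level. All 206 members were among the 1000 genes with the highest CPM in each ASM library, and 35 or 36 of them were among the highest 100. In BSM none was among the highest 100, and 0 in BSM1, 5 in BSM2 and 2 in BSM3 were among the highest 1000.

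**Figure D3:**
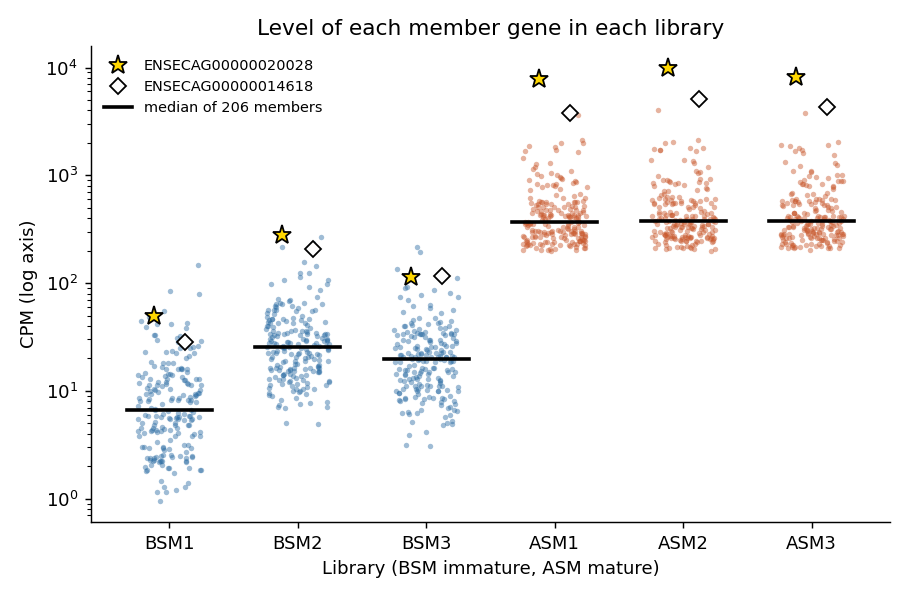
CPM of each member (points, log y axis) in the 3 BSM and 3 ASM libraries (x axis), with the median of 206 members as a bar and the 2 most abundant members as a star and a diamond. Medians are 6.62, 25.7 and 19.6 CPM in BSM1, BSM2 and BSM3, and between 368 and 378 CPM in ASM.

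ENSECAG00000020028, with a derived length of 153 bp, was the most abundant member. It had 770 counts in BSM1, 4399 in BSM2 and 1605 in BSM3, and 150536 in ASM1, 196888 in ASM2 and 141530 in ASM3. This is 49.2, 276 and 115 CPM in the BSM libraries and 7780, 9983 and 8231 CPM in the ASM libraries. Its mean was 147 ± 117 CPM (SD, n = 3) in BSM and 8665 ± 1164 CPM (SD, n = 3) in ASM, a ratio of the means of 59.0. The stages did not overlap, and within BSM the BSM2 level was 5.62 times the BSM1 level. By CPM it ranked first of all genes in ASM2 and second in ASM1 and ASM3. By FPKM it ranked first in all 3 ASM libraries and was at rank 280 in BSM1, 49 in BSM2 and 141 in BSM3.

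The FPKM values of ENSECAG00000020028 were 50852 in ASM1, 65249.5 in ASM2 and 53795 in ASM3, against 322, 1807 and 748 in BSM1, BSM2 and BSM3. It thus held 5.90%, 7.32% and 6.26% of the summed FPKM of the ASM libraries, but 0.778%, 0.998% and 0.823% of their counts. Its derived length lies at the short end of the 150 to 200 bp for which the library fragments were selected. How well FPKM measures a gene as short as a fragment was not tested.

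The next member in abundance, ENSECAG00000014618, is named here because of its values and was derived to be 310 bp long. It had 28.6, 208 and 117 CPM in BSM1, BSM2 and BSM3, and 3803, 5098 and 4266 CPM in ASM1, ASM2 and ASM3. Its mean in ASM was 4389 ± 656 CPM (SD, n = 3), and the ratio of the ASM to the BSM mean was 37.2. The BSM2 level was 7.29 times the BSM1 level. As for ENSECAG00000020028, ASM2 was the highest mature library and BSM1 the lowest immature one. In FPKM it had 12268, 16445 and 13761 in ASM1, ASM2 and ASM3, rank 2 of all genes in each of them.

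The third member, 2652 bp long, had 3645, 4044 and 3816 CPM in ASM1, ASM2 and ASM3 and 85.1, 269 and 194 CPM in BSM1, BSM2 and BSM3. The members at ranks 4 to 10 had mean ASM levels between 1752 and 2102 CPM. The fourth, 1463 bp long, was the most even of the first 10, with 2107, 2143 and 2058 CPM in ASM1, ASM2 and ASM3 and with 148, 238 and 216 CPM in BSM1, BSM2 and BSM3. Its BSM libraries differed by 1.61-fold, the smallest range among the first 10, and its ASM mean was 10.5 times its BSM mean.

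Ratios of the mean ASM to the mean BSM CPM ran from 8.78 to 69.3 among the members, with a median of 25.1. The ratio was below 10 for 5 members, from 10 to under 20 for 66, from 20 to under 40 for 94 and 40 or more for 41. The largest ratios, 69.3, 65.7 and 61.7, belonged to the members at ranks 195, 205 and 142. The first of these had 15, 79 and 54 counts in BSM1, BSM2 and BSM3, so its ratio rests on few counts. The smallest ratios, 8.78, 8.83 and 9.23, belonged to the members at ranks 175, 192 and 32. With TMM in place of library totals the median ratio was 35.1, and with DESeq2 size factors it was 39.0. With TMM in every condition of the rule there were 310 members, among them all 206.

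As background, edgeR's quasi-likelihood test with adjusted p-values under 0.05 called 41.4% of 32954 genes higher in ASM, and 34.8% of the Ensembl genes tested. The rule placed every member among the genes higher in ASM, so their calls are no result and are not read as one. Every ASM library lay above every BSM library in CPM for all members, which the rule also fixes unless 1/8 of the mean ASM CPM exceeds 200, and for 37.8% of the genes tested. The edgeR log2 fold change of the members ran from 3.59 to 6.59 with a median of 5.13, where the median over all genes tested was 0.06. For ENSECAG00000020028 it was 6.37 and for ENSECAG00000014618 it was 5.70. Without BSM2 these became 7.19 and 6.39, and without BSM1 they became 5.79 and 5.08.

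At the thresholds, the member with the lowest ASM level had 200 CPM in ASM1, and the nearest gene outside had 212, 223 and 197 CPM in ASM1, ASM2 and ASM3. The member nearest the BSM ceiling had an ASM mean 8.0045 times its highest BSM level, and the nearest gene outside had 7.98 times. ENSECAG00000020028 was the shortest member, and the nearest shorter gene that met the other conditions was 75 bp long. The longest member was 6609 bp long, and the nearest longer gene that met the other conditions was 13030 bp long.

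The rule set a ceiling for the immature libraries but no order among them. In 189 of the 206 members (91.7%) BSM2 was the highest, BSM3 the next and BSM1 the lowest. The same order was found in 27.7% of the 23943 tested genes that had at least 10 counts in every BSM library, and in 30.7% of the 14659 Ensembl genes among them. BSM2 was the highest immature library for 191 members, or 92.7%, against 38.1% of these genes and 40.9% of the Ensembl genes among them. BSM1 was the lowest for 202 members, against 44.5% of the genes and 45.9% of the Ensembl genes among them. Each library is 1 horse, so the order of the horses has no replicate and no test.

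The differences in level were large. The median member was 4.11-fold higher in BSM2 than in BSM1, 2.86-fold higher in BSM3 than in BSM1 and 1.40-fold higher in BSM2 than in BSM3. As a percent of the mean ASM level of the same gene, the median member stood at 1.53% in BSM1, 6.21% in BSM2 and 4.46% in BSM3. The quartiles were 0.897% and 2.72% in BSM1, 4.01% and 9.01% in BSM2, and 3.09% and 6.39% in BSM3. For all 23943 genes the median log2 difference between BSM2 and BSM1 was 0.06, and for the members it was 2.04. With TMM the order held for 188 members and the median fold between BSM2 and BSM1 was 3.74, and with DESeq2 size factors these were 188 and 3.83.

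**Figure D4:**
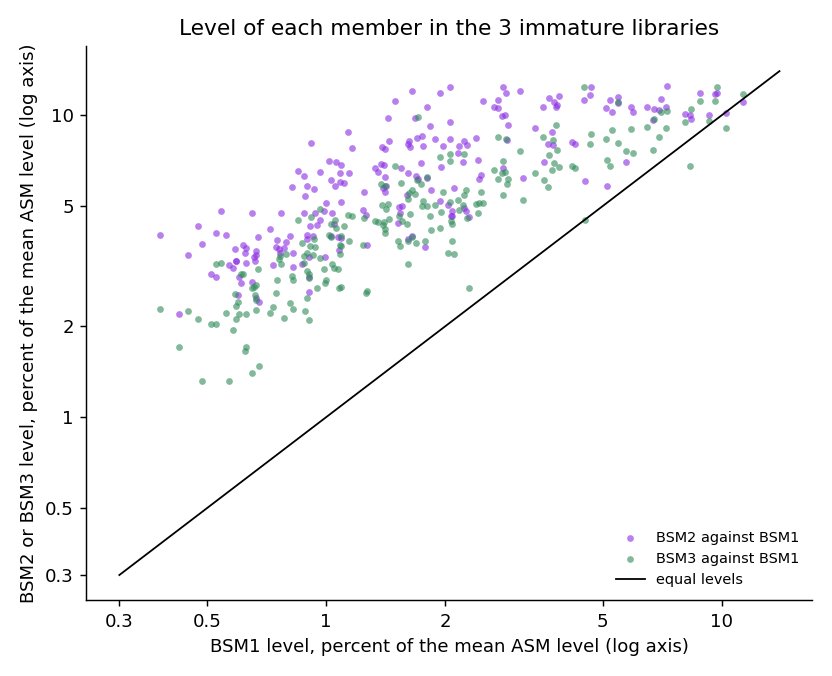
Level of each member in BSM2 or BSM3 (y axis) against its level in BSM1 (x axis), each as a percent of the mean ASM level of the gene and on log axes. Most points lie above the line of equal levels, with medians of 1.53% in BSM1, 6.21% in BSM2 and 4.46% in BSM3. The points approach the line at the right, where the ceiling of the rule leaves little room above it.

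The members were not alike in this. The highest and lowest BSM libraries differed by less than 1.5-fold in 15 members, by 1.5- to under 3-fold in 45, by 3- to under 5-fold in 82, by 5- to under 7-fold in 49 and by 7-fold or more in 15. The 15 most even members stood at a median of 8.32%, 10.1% and 9.07% of their ASM level in BSM1, BSM2 and BSM3. In the 15 most uneven members these medians were 0.651%, 4.80% and 3.21%. Median ratios of ASM to BSM were 10.9 in the former and 35.0 in the latter. Range and ratio both use the BSM levels, so they are not independent. The ceiling at 1/8 of the mean ASM level also allows only a narrow range where the lowest BSM level is high. The contrast between even and uneven members is therefore partly set by the rule.

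The member with the widest range, at rank 120 and 1686 bp long, had 1.28, 13.5 and 7.71 CPM in BSM1, BSM2 and BSM3, a range of 10.6-fold. Its BSM1 level rests on 20 counts. In ASM the same gene had 337, 332 and 342 CPM in ASM1, ASM2 and ASM3, among the most even of all members. The member at rank 184 had 1.15, 10.4 and 5.14 CPM in BSM1, BSM2 and BSM3, a range of 9.06-fold with 18 counts in BSM1. At the other end, the member at rank 175 had 28.2, 27.7 and 29.4 CPM in BSM1, BSM2 and BSM3, a range of 1.06-fold on at least 412 counts per library.

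Of the 17 members outside the common order, 13 were highest in BSM3 with BSM2 next. Another 2 had the order BSM2, BSM1, BSM3, 1 was highest in BSM1 and 1 was highest in BSM3 and lowest in BSM2. They were 8 of the 15 members with a range under 1.5-fold and 1 of the 64 members with a range of 5-fold or more.

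The other abundant genes are set beside the members here. The order of BSM2, BSM3 and BSM1 was found in 78.9% of the 285 genes with a BSM level between 1/8 and 1/2 of the ASM level and in 34.0% of the 321 genes above 1/2. The median fold between BSM2 and BSM1 was 1.43 in the former and 1.06 in the latter. Among all 6091 genes called higher in ASM with at least 10 counts in every BSM library, 49.9% had this order, and among 11768 genes called lower 17.2% did. All these shares come from the same 3 libraries, and the difference between the sets was not tested.

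The correlations of the members' levels between libraries are a description only, because the ceiling of the rule ties the BSM levels to the ASM level, most closely in BSM2, the highest immature library for most members. They also rest on unequal counts, with a median member count of 103.5 in BSM1, 409.5 in BSM2 and 274.5 in BSM3. Across the 206 members, which share libraries and are not independent replicates, Pearson's r of log2 CPM between BSM2 and the ASM libraries was between 0.781 and 0.824. Between BSM3 and the ASM libraries it was between 0.748 and 0.784, and between BSM1 and the ASM libraries between 0.571 and 0.593. Within BSM it was 0.859 for BSM1 and BSM2, 0.912 for BSM1 and BSM3 and 0.957 for BSM2 and BSM3. Within ASM it lay between 0.972 and 0.984.

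The coefficient of variation (CV) of CPM over the 3 ASM libraries had a median of 7.27% and ran from 1.18% to 26.9%. The minimum of 200 CPM in every ASM library limits this spread, and without ASM1 the median was 4.67%. Counting error alone gives a median of 1.19% at these counts. It was under 10% in 148 members and 20% or more in 4. In BSM the median CV was 59.1%, and in 202 of the 206 members the BSM libraries had a wider range than the ASM libraries. Counting error in BSM1, the library with the fewest member counts, has a median of 9.83%. For the 285 and the 321 other abundant genes the median CV was 6.00% and 5.77% in ASM and 19.0% and 13.2% in BSM, over the 23943 genes it was 17.2% and 20.5%, and over the 14659 Ensembl genes among them it was 12.04% and 16.7%. Without BSM1 the median CV of the members in BSM was 23.8%.

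An ASM CV of 20% or more was found for 4 members. The member at rank 100 had 505, 353 and 306 CPM in ASM1, ASM2 and ASM3. The member at rank 97 had 364, 508 and 304 CPM in ASM1, ASM2 and ASM3. The first was highest in ASM1 and the second in ASM2, with CVs of 26.9% and 26.7%. The other two, at ranks 104 and 62 and added after their values were seen, were both lowest in ASM1 and highest in ASM2, with CVs of 21.8% and 20.1%. Over all members, ASM1 was the highest mature library for 68, ASM2 for 93 and ASM3 for 45. Over the 23943 genes these were 30.7%, 32.8% and 36.5%, and over the 14659 Ensembl genes among them 34.9%, 31.9% and 33.2%. For the members the shares were 33.01%, 45.1% and 21.8%.

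The median length of the members was 1425 bp with quartiles of 905 and 2219 bp. It was 1302 bp with quartiles of 792 and 2122 bp for the 20814 Ensembl genes with a count within the same limits. For the 14659 tested Ensembl genes of any length with at least 10 counts in every BSM library it was 1507 bp, with quartiles of 935 and 2385.5 bp. The members were thus longer than the first set and shorter than the second at the median. A length under 300 bp was found for 5 members, or 2.43%, for 2.02% of the 20814 genes and for 2.22% of the 14659. Among the 285 and the 321 other abundant genes no gene was shorter than 300 bp, and the median lengths were 2091 and 1469 bp. Lengths were a multiple of 3 in 58.7% of the members, in 58.5% of the Ensembl genes with a count and in 44.9% and 37.7% of the 285 and the 321 other abundant genes.

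Per length, the order of the members changed. Of the 10 members with the highest CPM in ASM, 6 were also among the 10 with the highest FPKM. The third by FPKM, at rank 14 by CPM and 183 bp long, had a mean of 7153 ± 255 FPKM (SD, n = 3). Its levels were 1260, 1353 and 1314 CPM in ASM1, ASM2 and ASM3 and 8.63, 42.9 and 33.1 CPM in BSM1, BSM2 and BSM3. The 5 members under 300 bp had mean ASM levels between 840 and 56632 FPKM, and the 23 members of 3000 bp or more had between 32.2 and 478 FPKM. In CPM the same 2 classes had medians of 464 and 515, and Pearson's r between log2 length and log2 CPM in ASM across the 206 members was -0.06. The ratio of the ASM to the BSM mean had a median of 46.4 in the 5 shortest members, 26.3 in the 53 of 300 to under 1000 bp, 26.9 in the 79 of 1000 to under 2000 bp, 19.2 in the 46 of 2000 to under 3000 bp and 22.0 in the 23 longest.

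**Figure D5:**
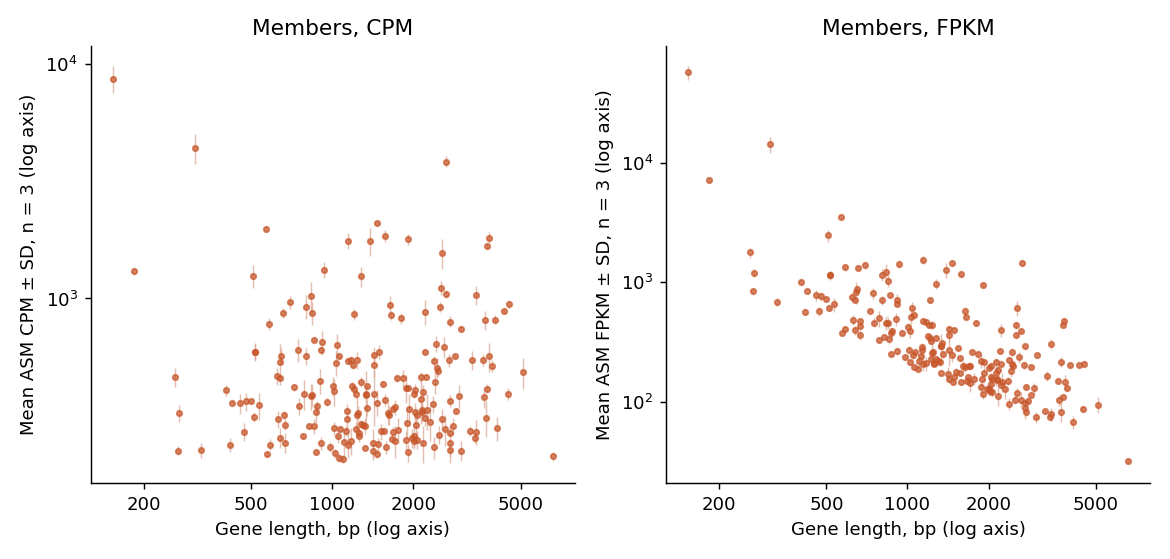
Mean level of each member over the 3 ASM libraries with its SD (y axis, log) against its derived gene length (x axis, log), in CPM on the left and FPKM on the right. Levels in CPM have an r of -0.06 with length, whereas FPKM, which is divided by length, falls from 56632 for the shortest to 32.2 for the longest member.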

How the data were processed

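RNA-Seq of testis tissue was analyzed for 3 BSM and 3 ASM libraries. The authors aligned clean paired reads to the Ensembl horse genome with TopHat 2.0.12 and a Bowtie index of version 2.2.3, and counted reads per gene with HTSeq 0.6.1. They deposited raw counts without normalization. The FPKM values were computed by the authors from count and gene length. Gene length was solved from these values and was whole within 0.01 for all 53514 genes with a count. The Ensembl release, the strand setting and the treatment of shared reads are not given in the sources used here, and genes that overlap or nearly match another have uncertain counts.

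CPM was the count divided by the library total of gene counts. The edgeR 4.0.16 quasi-likelihood test in R 4.3.3 used filterByExpr, TMM, stage as the only term and Benjamini-Hochberg adjusted p-values with a threshold of 0.05. Alternatives were DESeq2 1.42.0, limma 3.58.1 on log2(FPKM + 1), other scalings and filters, other limits of the rule, a block on library number and the omission of each library. On simulated data for 32660 genes, edgeR recovered 141 of 200 changed genes and called 10 unchanged ones. The simulation gave every gene the same dispersion and changed only these 200 genes. In the data edgeR called 41.4% of the genes tested higher in ASM, so the recovery need not hold there. Members, named genes and alternatives were chosen with earlier results of these data known. Genes to be described were the members with the highest ASM CPM and FPKM, the extreme ratios and ranges, and those at the thresholds. Only the 2 most abundant members are named by identifier, since no symbols could be assigned with the reference table used here, and gene lists that need symbols were not used.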

Additional observations from a re-analysis of the deposited data

How the results depend on the processing

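The number of members, 206, depends on the limits of the rule. It was 384 with a minimum of 100 CPM in ASM, 83 with 400 CPM, 338 with a BSM ceiling of 1/4, 101 with 1/16 and 310 with TMM, and between 206 and 241 when each library was left out. TMM rescales both the ASM minimum and the BSM ceiling of the rule, and which of them adds members was not tested. In ASM the share of counts was 13.4% of the counts on Ensembl genes, 11.003% without the most abundant member and 8.87% without the 10 most abundant. BSM2 was the highest immature library for 96.6% of the members with a BSM range of 3-fold or more. The median CV in BSM was 56.5% with TMM and 49.4% for members with at least 100 counts in every BSM library, and between 23.8% (without BSM1) and 86.0% (without BSM3) when each library was left out. In ASM it was then between 4.67% (without ASM1) and 7.60% (without ASM3). A filter of 10 counts in every library gave 6496 genes higher and 6966 lower in ASM, limma gave 15846 higher and 18086 lower, DESeq2 19098 and 12440, and no filter beyond 1 count 18002 and 15676, against 13644 and 11871 with edgeR's filter and TMM. The alternatives on the 10 most abundant members, the BSM range and the CV without a library were chosen after seeing the data.

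The median log2 fold change of the members was between 4.57 (without BSM1) and 5.57 (without BSM2) when each library was left out, that of ENSECAG00000020028 between 5.79 and 7.19, and that of ENSECAG00000014618 between 5.08 and 6.39. With the library number as a replicate block, 13225 genes were higher in ASM and the median log2 fold change of the members was 5.28. Same-numbered libraries come from different horses. Their deviations from the stage means correlated between -0.06 and 0.02, and those of different-numbered libraries between -0.07 and 0.08. Whether same-numbered libraries were processed together cannot be told from these values. Scaling by library size alone gave 11962 genes higher and 14620 lower, and a median log2 fold change over all genes of -0.40, against 0.06 with TMM, and 4.64 for the members. At the lowest BSM counts, levels are limited by depth.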
